A study of Mus musculus with 6 samples.

Results

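The genes examined here are the 44 mouse collagen genes in the count tables, chosen by their names alone: every symbol that reads Col, a number, a, and a number, from Col1a1 to Col28a1, out of 22623 genes listed. They were split by textbook role into 11 fibrillar collagens, 8 basement membrane collagens and 25 other collagens. The counts come from single-nucleus RNA sequencing of subcutaneous TC1 tumors, TC1 being a lung epithelial tumor line of the mouse, grown for 24 days in 8-week-old male C57BL/6 mice. The host mice of both groups carried the floxed allele MCT2 loxP/loxP (MCT2 is the lactate transporter encoded by Slc16a7) with a systemic inducible Cre transgene (mCre-Tg). Hosts of the knockout group (KO, 3 libraries) received tamoxifen for 5 days and those of the control group (CO, 3 libraries) received vehicle, and the tumor cells were injected 2 days later. Tamoxifen was given only to the KO hosts, so that its effect and that of the deletion cannot be told apart here, and the injected cells came from a cultured line. The labels give the tissue as lung, whereas the study's methods place the tumors under the skin of the flank. Triplets of values below are in the order of replicates 1 to 3.

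Collagens are secreted proteins whose chains wind into a triple helix and build up much of the extracellular matrix. Fibrillar collagens, chiefly types I, III and V, form the load-bearing fibrils of connective tissue and in tumors are made mostly by fibroblasts. Type IV collagen forms the sheet-like network of basement membranes under epithelium and around blood vessels, where types XV and XVIII sit as proteoglycan collagens, and a C-terminal piece of type XVIII is released as endostatin. The other collagens include the beaded filaments of type VI, the fibril-associated types XII, XIV and XVI, the short-chain types VIII and X, and membrane-spanning types such as XIII, XXIII and XXV.

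The sequences shown first belong to some of the members named in the comparisons of cell classes below. Col4a1 (chr8:11198423-11312826, minus strand) and Col4a2 (chr8:11312805-11449287, plus strand) encode the chains of the common type IV collagen and lie head to head, so that their annotated starts in GRCm38 overlap by 22 bases at chr8:11312805-11312826. These bases, read on the plus strand, are as follows.
Start shared by Col4a1 and Col4a2: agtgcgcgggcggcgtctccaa
For Col3a1, the fibrillar collagen with the most UMIs in tumor-like nuclei, and for Col13a1 and Col15a1, the members with the highest log2 fold changes in fibroblast-like and endothelial-like nuclei, the 250 bases before the RefSeq start (GRCm38.p6) are printed on the strand of the gene, with any TATAAA in capitals.
Col3a1, chr1:45311288-45311537, plus strand: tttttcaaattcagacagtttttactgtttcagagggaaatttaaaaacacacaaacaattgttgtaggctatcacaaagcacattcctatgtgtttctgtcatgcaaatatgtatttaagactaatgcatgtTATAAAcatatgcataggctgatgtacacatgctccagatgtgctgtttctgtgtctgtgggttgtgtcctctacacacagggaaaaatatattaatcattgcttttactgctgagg
Col13a1, chr10:61979109-61979358, minus strand: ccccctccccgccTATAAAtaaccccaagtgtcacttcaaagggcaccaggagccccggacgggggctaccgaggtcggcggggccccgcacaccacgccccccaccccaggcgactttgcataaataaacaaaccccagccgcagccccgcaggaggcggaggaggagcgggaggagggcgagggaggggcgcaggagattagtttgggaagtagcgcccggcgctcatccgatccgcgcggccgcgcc
Col15a1, chr4:47207762-47208011, plus strand: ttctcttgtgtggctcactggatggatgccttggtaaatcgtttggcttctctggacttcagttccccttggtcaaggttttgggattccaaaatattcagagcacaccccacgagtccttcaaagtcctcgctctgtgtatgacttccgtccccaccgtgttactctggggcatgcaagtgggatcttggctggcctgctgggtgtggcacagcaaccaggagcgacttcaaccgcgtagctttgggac
The first base of TATAAA lies at −117 from the start of Col3a1 and at −237 from that of Col13a1, and the letters do not occur in the Col15a1 stretch. TATAAA, counted on both strands, occurred in 5 of 38 windows of 35 matched members and in 12.4% of all 32851 RefSeq windows of the same kind. CCAAT occurred in 13 of the 38 and in 33.8% of all, and GGGCGG in 22 of the 38 and in 32.7% of all. Neighbouring member pairs include Col4a3 and Col4a4 on chromosome 1 with starts 72 bases apart, and Col4a5 and Col4a6 on chromosome X with starts 1309 bases apart. Col3a1 (chr1:45311538-45349706, plus strand) and Col5a2 (chr1:45374321-45503282, minus strand) converge with 24614 bases between their ends.

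After filters, 17514 nuclei were kept, 7660 from CO and 9854 from KO, with 13252572 to 22057084 UMIs (unique transcript molecules) per library and a median of 1094 to 4873.5 UMIs per nucleus. Between any pair of libraries 15 to 19 cell barcodes were shared, under 1% of the smaller library. KO1 stood apart from the other KO libraries, with a chi-square per degree of freedom of 190 against KO2 and 89.5 against KO3, where KO2 against KO3 gave 46.4 and the CO pairs 8.31 to 49.7. Over all nuclei, Slc16a7 was at 8.58, 11.6 and 21.0 CPM across CO against 15.6, 6.92 and 31.5 CPM across KO, where CPM is UMIs per 1000000 UMIs of the nuclei summed. Over all nuclei it was thus not lower in the libraries labelled KO. Of the 79703016 UMIs in these sums, however, 61307043 were in nuclei named tumor-like below, while the deletion was made in the host. These sums therefore cannot show deletion in host cells, which was not tested, and gene counts do not resolve the deleted exons. CO and KO below mean the libraries so labelled. No pair of libraries of the same group agreed within sampling noise. The study calls the libraries biological replicates, but the labels do not tie each to its own animal. The p-values of KO against CO thus measure the spread between these libraries, which may in part be technical. Those between classes come from fits that share the estimate of spread over genes. They can be very small for a gene whose own libraries differ widely, and do not measure that spread. Washing to remove free RNA was done in some samples that the protocol does not name, and the median nucleus held 0.889 to 6.76% mitochondrial counts.

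Nuclei were clustered without the collagen genes and named from marker lists without collagens, which gave 776 to 2496 tumor-like nuclei per library, 379 to 1548 macrophage-like and 45 to 198 T/NK-like nuclei, beside 185 endothelial-like and 117 fibroblast-like nuclei in all. Fibroblast-like nuclei numbered 7, 8 and 25 in CO and 10, 32 and 35 in KO, and endothelial-like nuclei 12, 22 and 29 in CO and 21, 28 and 73 in KO, so values in these classes rest on few nuclei. The 16 host fibroblast markers summed to 2103 to 5392 CPM in fibroblast-like and 805 to 1587 CPM in tumor-like nuclei. Svep1, which differed most among the 16, was at 342 and 0.685 CPM pooled over libraries, and Dcn at 304 and 18.7 CPM. Pdgfra, at 672 and 750.1 CPM, Gsn, at 116 and 137 CPM, and Cd34, at 77.3 and 98.99 CPM, were lower in fibroblast-like nuclei. The other markers on this list were higher there. The 15 endothelial markers summed to 3450 to 5800 CPM in endothelial-like and 198 to 283 CPM in tumor-like nuclei, and the 15 macrophage markers to 4405 to 8194 CPM in macrophage-like and 372 to 555 CPM in tumor-like nuclei. The 17 tumor markers reached, as a share of their level in tumor-like nuclei, a mean of 72.8% (range 43.1 to 102.4%) in fibroblast-like, 67.4% (51.6 to 77.6%) in endothelial-like, 21.6% (12.4 to 30.4%) in T/NK-like and 9.3% (5.3 to 15.8%) in macrophage-like nuclei. The epithelial keratins on this list were nearly absent, with 14 UMIs of Krt8 and 2 of Krt18 in all tumor-like nuclei. The 4 Y-linked genes summed to 5.4 to 19.0 CPM in tumor-like, 124 to 327 CPM in fibroblast-like, 172 to 719 CPM in endothelial-like and 425 to 570 CPM in macrophage-like nuclei. Tumor-marker levels of the fibroblast-like and endothelial-like classes were thus near those of tumor-like nuclei while their Y-linked levels lay far above, and the part of tumor RNA in their collagen levels was not tested. The 10 pericyte markers summed to 110 to 679 CPM in fibroblast-like and 192 to 619 CPM in endothelial-like nuclei, against 38 to 97 CPM in tumor-like nuclei.

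Tumor-like nuclei held counts of 43 of the 44 members, and all members together made up 1975 to 4058 CPM per library. Of their collagen UMIs, 42.7% were fibrillar, 32.2% basement membrane and 25.1% other collagens. Levels are counts at transcript ends and are not compared between genes. Among the fibrillar members, Col3a1, the chain of type III collagen, was at 430.0, 675 and 1043 CPM across CO against 307, 473 and 305 CPM across KO. Of the partner chains of type I collagen, Col1a2 was at 171, 176 and 184 CPM across CO against 156, 96.5 and 134 CPM across KO. Col1a1 was at 8.62, 13.1 and 23.9 CPM across CO against 9.15, 5.37 and 11.4 CPM across KO. Per 100 UMIs of Col1a2 there were 6.98 of Col1a1 (5.04 to 13.0 over the libraries). Such ratios are given to set classes side by side, since UMIs of different genes do not give the ratio of their protein chains. Type V collagen, which sets fibril diameter, was represented by Col5a1 at 146, 162 and 226 CPM across CO against 132, 156 and 176 CPM across KO. Its second chain Col5a2 was at 133, 174 and 276 CPM across CO against 106, 228 and 165 CPM across KO, and Col5a3 at 46.5, 55.0 and 63.8 CPM across CO against 31.6, 65.2 and 73.3 CPM across KO. CO3 held the highest level of Col3a1, Col1a1, Col1a2, Col5a1 and Col5a2, and the groups overlapped for all of these but Col1a2. Col27a1, a fibrillar collagen of cartilage, was at 28.2, 25.1 and 78.8 CPM across CO against 25.6, 47.6 and 47.7 CPM across KO, again highest in CO3. Col11a1, which forms thin cartilage fibrils with type II collagen, was low at 0.994, 2.49 and 4.87 CPM across CO against 1.5, 2.11 and 1.80 CPM across KO. The remaining fibrillar members Col11a2, Col24a1 and Col2a1 had 13 to 50 UMIs in all tumor-like nuclei.

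Among the basement membrane members, Col4a1 was at 265, 324 and 388 CPM across CO against 248, 247 and 293 CPM across KO and its head-to-head partner Col4a2 at 212, 231 and 303 CPM across CO against 191, 198 and 232 CPM across KO. The pair kept a narrow ratio, 124 to 140 UMIs of Col4a1 per 100 of Col4a2 in the 6 libraries. Col4a5, a chain of the type IV network best known from kidney, was at 95.1, 121 and 167 CPM across CO against 133, 189 and 161 CPM across KO. Its neighbour Col4a6 was near the floor at 1.91, 1.72 and 2.92 CPM across CO against 1.10, 3.2 and 3.61 CPM across KO, and Col4a4 was at 4.06, 5.65 and 5.06 CPM across CO against 10.8, 3.2 and 3.61 CPM across KO, with KO1 highest. Col18a1 (chr10:77052178-77166548, minus strand), the source of endostatin, was at 209, 268 and 194 CPM across CO against 101, 103 and 119.7 CPM across KO. All CO libraries lay above all KO libraries for this gene. Col4a3 had 73 UMIs and Col15a1 (chr4:47208161-47313167, plus strand) had 25 UMIs in all tumor-like nuclei, whose total was 61307043 UMIs.

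Among the other collagens, the chains of type VI were counted most often, with Col6a3 at 265, 259 and 434 CPM across CO against 151, 300.3 and 301 CPM across KO. Col6a1 was at 100.2, 124 and 143 CPM across CO against 81.7, 53.8 and 69.2 CPM across KO and Col6a2 at 48.9, 69.5 and 88.2 CPM across CO against 39.5, 44.8 and 40.8 CPM across KO, both with every CO library above every KO library. Col12a1, which coats fibrils, was at 61.0, 38.0 and 198 CPM across CO against 31.2, 66.2 and 62.9 CPM across KO. Col16a1, another fibril-associated chain, was at 70.8, 74.0 and 114 CPM across CO against 68.7, 53.7 and 68.5 CPM across KO, without overlap between the groups. Col8a1, a short-chain collagen of vessel walls and other matrices, was at 30.1, 31.7 and 79.0 CPM across CO against 111, 42.9 and 43.2 CPM across KO. Single libraries stood out for these, CO3 for Col12a1 and KO1 for Col8a1. Low members were Col9a3, a chain of the cartilage type IX, at 7.37, 8.14 and 7.01 CPM across CO against 6.47, 8.35 and 7.08 CPM across KO, and Col20a1 at 8.12, 6.89 and 6.81 CPM across CO against 7.49, 7.70 and 7.49 CPM across KO. Both had nearly the same level in every library. The membrane-spanning Col23a1 was at 1.66, 4.31 and 7.01 CPM across CO against 3.87, 3.78 and 3.19 CPM across KO and Col25a1 at 1.08, 3.64 and 4.09 CPM across CO against 4.58, 2.98 and 2.64 CPM across KO. Col28a1 was at 1.33, 1.91 and 2.53 CPM across CO against 1.74, 3.34 and 2.36 CPM across KO. The other 14 of these members had 93 UMIs or fewer in this class, and Col9a2 had none in any library or class.

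**Figure D1:**
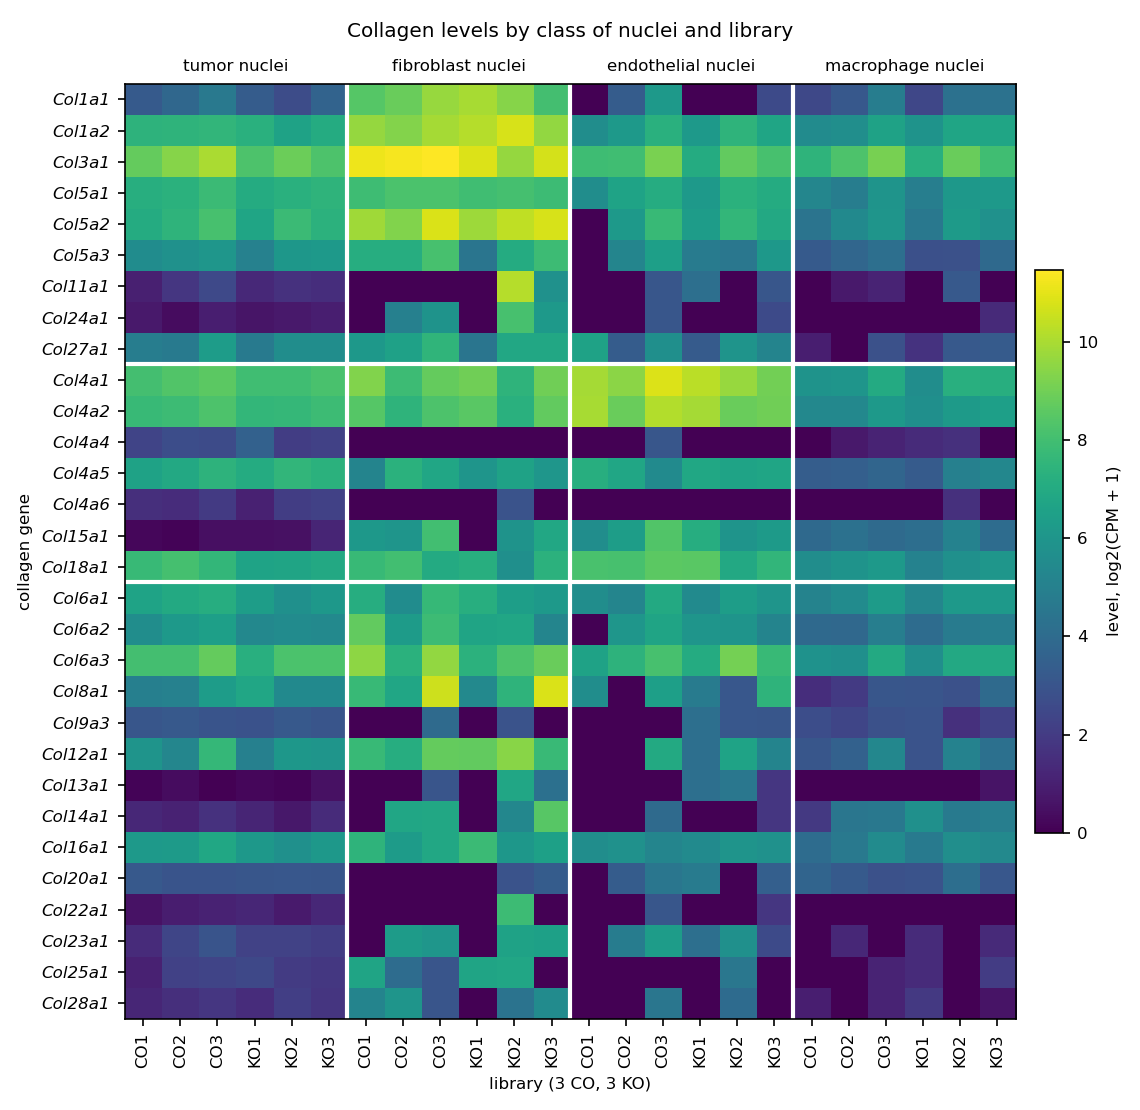
Level of collagen genes (rows, grouped as fibrillar, basement membrane and other) in each of the 6 libraries (columns) within each cell class; color is log2(CPM + 1), with CPM counted within the class and library. Tumor-like nuclei show most members at some level, with Col3a1 at 305 to 1043 CPM and Col15a1 nearly absent.

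The first comparison asked whether collagen transcripts of the tumor differed between hosts labelled KO and CO. In tumor-like nuclei no collagen passed the threshold (absolute log2 fold change of at least 0.58 and adjusted p of at most 0.05, edgeR), and neither did any of the 12831 genes tested (0%). Of these genes 873 had an unadjusted p under 0.05, 4 collagens of 33 tested among them, and DESeq2 called 30 genes (0.234%), of which Col18a1 was the only collagen. Of the 25 members with at least 100 UMIs, Col1a2, Col6a1, Col6a2, Col16a1 and Col18a1 did not overlap between the groups, all 5 with CO above KO. Of all 12033 genes with as many UMIs, 12.9% did not overlap, 7.45% with CO above and 5.46% with KO above. The level of Col18a1 was 224 ± 39.0 CPM in CO against 108 ± 10.3 CPM in KO (SD, n = 3 each), with a log2 fold change of KO over CO of −0.99 (SE 0.18, unadjusted p = 0.00090, adjusted p = 0.58). For Col3a1 the group means were 716 ± 308 CPM in CO against 361 ± 96.5 CPM in KO, and the log2 fold change was −0.90 (SE 0.37, adjusted p = 0.58). Col12a1 had a log2 fold change of −0.80 (SE 0.61, adjusted p = 0.58), which rested on CO3: leaving out that library moved it to 0.17. Col6a1 had −0.78 (SE 0.19, adjusted p = 0.58) and Col1a1 had −0.75 (SE 0.42, adjusted p = 0.58). The median log2 fold change was −0.13 over the collagens tested and −0.02 over all genes tested. Without KO1, the library that stood apart, edgeR called Col18a1 (−0.92) and Col6a1 (−0.90), but it also called 18.8% of all genes then tested.

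Over all nuclei together the picture was alike, with 0 of 13662 genes called (0%), 661 at an unadjusted p under 0.05 and 3 of 37 collagens among these. DESeq2 called 12 genes (0.0878%), Col18a1 being the only collagen. In such sums a lower level can come from fewer cells of a type or from less RNA per cell, which cannot be told apart. Col18a1 had a log2 fold change of −0.96 (SE 0.18, adjusted p = 0.67) and Col3a1 of −0.82 (SE 0.38, adjusted p = 0.67). Among the 30 members with at least 100 UMIs over all nuclei, the largest absolute values were those of Col11a1, 1.48 (SE 0.93, adjusted p = 0.67), Col22a1, 1.34 (SE 0.62, adjusted p = 0.67), and Col24a1, 1.09 (SE 0.87, adjusted p = 0.67). These 3 had most of their UMIs in KO2, described with the fibroblast-like nuclei below, and without that library the log2 fold change of Col11a1 was −0.30. Over the 44 members, the fibrillar members summed to 965, 1282 and 1903 CPM across CO against 770.4, 1076 and 916 CPM across KO in tumor-like nuclei, the basement membrane members to 788, 952 and 1061 CPM across CO against 687, 744 and 816 CPM across KO and the others to 604, 629.6 and 1094 CPM across CO against 517, 594 and 619.9 CPM across KO. KO minus CO was −463, −184 and −199 CPM (exact two-sided permutation p 0.2 each, n = 3 per group, where 0.1 is the smallest possible, and 1.0 after adjustment over 18 such tests). CO3 was highest and KO1 lowest in each of the 3 sums.

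**Figure D2:**
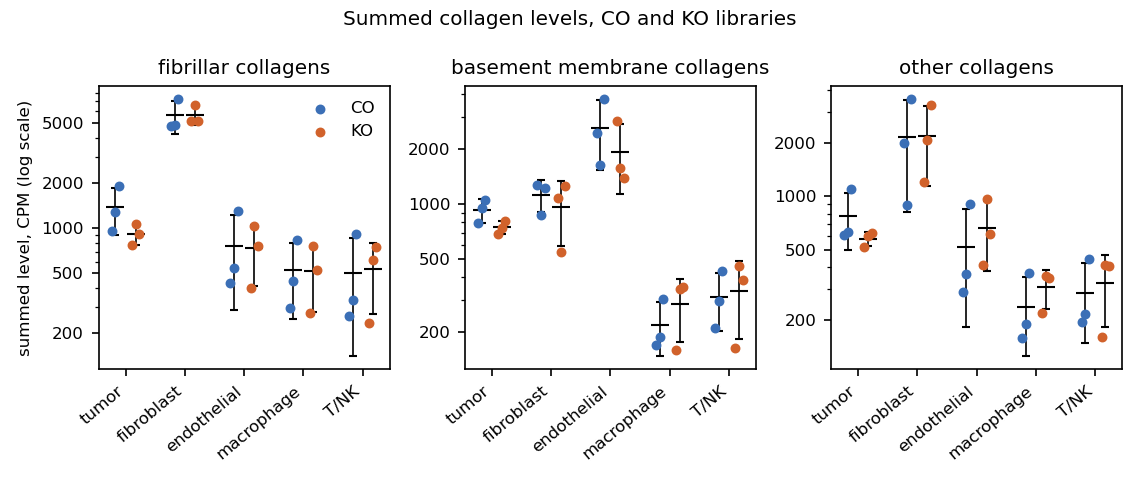
Summed level (CPM) of the fibrillar, basement membrane and other collagens by cell class, 1 point per library, CO and KO side by side on a log axis, with the group mean and SD (n = 3) as bars. The CO and KO points overlap in tumor-like nuclei, where CO3 is highest with 1903 CPM of fibrillar collagens.

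The next comparison asked which collagens differed between fibroblast-like and tumor-like nuclei of the same libraries. Collagens summed to 6608 to 12055 CPM in fibroblast-like nuclei, 342% of the tumor-like level on average (231 to 415% over the libraries), and 63.6% of these UMIs were fibrillar. The 4 libraries with at least 10 such nuclei (CO3 and KO1 to KO3) were tested, with library as a block. Of 30 collagens tested, 18 were higher and 1 lower, where of all 11985 genes tested 5.72% were higher and 3.62% lower (9.35% in either direction). Collagens had a median log2 fold change of 1.83 and all genes of −0.15. Among fibrillar members 8 of 9 tested were higher, among basement membrane members 1 was higher and 1 lower of 6, and among the others 9 of 15 were higher. Members near the floor in tumor-like nuclei, at 0.163 to 2.19 CPM pooled, were Col8a2, Col11a1, Col13a1, Col14a1, Col15a1, Col24a1 and Col28a1. They could pass the low-count filter mainly through the fibroblast-like class where they are high, so their calls add no support to these counts. Collagens were not used to form the classes, although genes that vary with collagens were. Numbers after higher or lower below are log2 fold changes.

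Col1a1 had 10, 29 and 117 UMIs across CO against 48, 103 and 29 UMIs across KO in fibroblast-like nuclei, which is 347, 455 and 842 CPM across CO against 995, 673 and 262 CPM across KO. Every library lay far above the 5.37 to 23.9 CPM of tumor-like nuclei, a log2 fold change of 5.75 (SE 0.22, adjusted p = 7.3e-147). Its partner Col1a2 was at 798, 644 and 979 CPM across CO against 1161, 1744 and 778 CPM across KO, for a log2 fold change of 2.90 (SE 0.19, adjusted p = 2.4e-52). This put the type I chains at 55.2 UMIs of Col1a1 per 100 of Col1a2 (33.7 to 86.0 over the libraries). Col3a1 was at 2325, 2543 and 2836 CPM across CO against 1867, 809.8 and 1719 CPM across KO and was higher than in tumor-like nuclei by 1.70 (SE 0.18, adjusted p = 1.5e-19). Col5a2 was at 902, 628 and 1799 CPM across CO against 892, 1319 and 1737 CPM across KO, higher by 2.79 (SE 0.18, adjusted p = 8.2e-51). Its partner Col5a1, at 243, 298 and 295 CPM across CO against 249, 274 and 235 CPM across KO, did not pass the threshold, with 0.49 (SE 0.21, adjusted p = 0.12). The type V chains thus stood at 19.5 UMIs of Col5a1 per 100 of Col5a2 against 92.3 in tumor-like nuclei. Col5a3 was at 139, 141 and 281 CPM across CO against 20.7, 131 and 235 CPM across KO and was higher by 1.40 (SE 0.25, adjusted p = 1.2e-06). Col27a1 was at 69.4, 94.2 and 179.9 CPM across CO against 20.7, 118 and 118 CPM across KO, higher by 1.07 (SE 0.29, adjusted p = 0.0039).

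Some fibrillar members came from single libraries. Col11a1 had 0, 0 and 0 UMIs across CO against 0, 179 and 6 UMIs across KO, so that KO2 held 179 of its 185 UMIs, at a level of 0, 0 and 0 CPM across CO against 0, 1169 and 54.3 CPM across KO. Col11a2 had 16 UMIs, all in KO2. Col24a1, a fibrillar collagen known from developing bone, had 0, 2 and 8 UMIs across CO against 0, 43 and 8 UMIs across KO, or 0, 31.4 and 57.6 CPM across CO against 0, 281 and 72.4 CPM across KO. Col22a1, a junction collagen outside the fibrillar group, had 35 UMIs, also all in KO2. Most counts of these 4 genes thus lay in KO2. Col11a1 and Col24a1 passed the test against tumor-like nuclei, with log2 fold changes of 6.07 (SE 0.41, adjusted p = 2.5e-47) and 6.55 (SE 0.79, adjusted p = 1.3e-14). With 179 of 185 UMIs in KO2, the p-value of Col11a1 does not measure its spread over the libraries. Without KO2, 13 of the 19 calls were left, and Col11a1 (log2 fold change 2.61), Col13a1, Col25a1, Col27a1, Col28a1 and Col6a2 were not among them. Without CO3 the calls of Col6a2, Col27a1 and Col28a1 were lost, and without KO3 those of Col8a2 and Col28a1.

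Basement membrane chains gave another order. Col4a1 was at 625, 235 and 439 CPM across CO against 498, 176 and 507 CPM across KO and Col4a2 at 347, 173 and 302 CPM across CO against 373, 157 and 416 CPM across KO, and their log2 fold changes of 0.25 (SE 0.19, adjusted p = 0.54) and 0.23 (SE 0.20, adjusted p = 0.60) did not pass. Col18a1 was at 208, 251 and 129.5 CPM across CO against 145, 52.2 and 163 CPM across KO, with −0.30 (SE 0.25, adjusted p = 0.59). For these 3 chains no difference from tumor-like nuclei was called in either direction. Col15a1 had 2, 4 and 35 UMIs across CO against 0, 9 and 13 UMIs across KO, or 69.4, 62.8 and 252 CPM across CO against 0, 58.8 and 118 CPM across KO, and was higher by 6.96 (SE 0.81, adjusted p = 6.3e-16). Col4a5, at 34.7, 157 and 108 CPM across CO against 62.2, 98.0 and 63.3 CPM across KO, was the one member called lower, at −1.05 (SE 0.26, adjusted p = 0.0011), and DESeq2 did not call it (−0.93, adjusted p = 0.056). Col4a3 and Col4a4 had 0 UMIs among 543345, which allows up to 5.52 CPM, and Col4a6 had 1.

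Among the other collagens, Col8a1 had 6, 7 and 218 UMIs across CO against 2, 27 and 199 UMIs across KO in fibroblast-like nuclei, at 208, 109.9 and 1569 CPM across CO against 41.5, 176 and 1800.4 CPM across KO. CO3 and KO3 stood far above the other libraries, and the log2 fold change over tumor-like nuclei was 3.30 (SE 0.22, adjusted p = 2.0e-48), which DESeq2 did not call (2.91, adjusted p = 0.12). Col8a2, its partner chain with 11 UMIs, was higher by 4.88 (SE 1.05, adjusted p = 0.00010). Col12a1 was at 208, 141 and 432 CPM across CO against 415, 686 and 217 CPM across KO, above its tumor-like level in every library, with 2.33 (SE 0.21, adjusted p = 9.6e-27). Col14a1 (chr15:55307750-55520803, plus strand), a fibril-associated chain of mature connective tissue, had 0, 7 and 16 UMIs across CO against 0, 6 and 40 UMIs across KO, or 0, 109.9 and 115 CPM across CO against 0, 39.2 and 362 CPM across KO, and was higher by 5.97 (SE 0.70, adjusted p = 1.1e-15). CO1 and KO1 held none of it and KO3 held most. The membrane-spanning Col13a1 (chr10:61838236-61979108, minus strand) had 0, 0 and 1 UMIs across CO against 0, 17 and 2 UMIs across KO, or 0, 0 and 7.20 CPM across CO against 0, 111 and 18.1 CPM across KO, and was higher by 7.34 (SE 1.21, adjusted p = 6.3e-08), the highest log2 fold change among the collagens here, on 20 UMIs of which KO2 held 17. Col23a1 was at 0, 78.5 and 64.8 CPM across CO against 0, 98.0 and 90.5 CPM across KO, higher by 3.81 (SE 0.62, adjusted p = 4.7e-08), and Col25a1 at 104, 15.7 and 7.20 CPM across CO against 104, 111 and 0 CPM across KO, higher by 3.41 (SE 0.78, adjusted p = 0.00033). Col28a1, on 14 UMIs, was higher by 2.69 (SE 0.92, adjusted p = 0.039).

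Type VI collagen differed less between these classes. Col6a3 was at 729, 157 and 777 CPM across CO against 166, 307 and 461 CPM across KO in fibroblast-like nuclei and its log2 fold change over tumor-like nuclei, 0.36 (SE 0.19, adjusted p = 0.30), did not pass. Col6a1 was at 139, 47.1 and 202 CPM across CO against 145, 84.9 and 72.4 CPM across KO, with 0.39 (SE 0.26, adjusted p = 0.44), and Col6a2 at 416, 78.5 and 230.3 CPM across CO against 104, 111 and 36.2 CPM across KO, called higher by 1.00 (SE 0.29, adjusted p = 0.0078). The levels ranged widely over the libraries and lay on both sides of the tumor-like levels. Col16a1 was at 174, 78.5 and 115 CPM across CO against 228, 65.3 and 90.5 CPM across KO, with 0.42 (SE 0.28, adjusted p = 0.43). Col22a1 was at 0, 0 and 0 CPM across CO against 0, 229 and 0 CPM across KO. Of the other 19 members in this class, 8 had 1 to 16 UMIs and 11 had none, among them Col2a1, Col10a1 and Col17a1.

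Whether fibroblast-like collagen levels differed between KO and CO could be asked only with 7 and 8 nuclei in CO1 and CO2, in an analysis added after the data were seen. No gene of 2305 tested was called (0%), 66 had an unadjusted p under 0.05, and none of these was among the 15 collagens tested. DESeq2 called 0 as well. Over the collagens the median log2 fold change was −0.11, and over all genes 0.02. Col3a1 was the single member with at least 20 UMIs whose groups did not overlap, CO above KO, where 8.86% of all 5793 genes with as many UMIs did not overlap (4.99% with CO above). Its log2 fold change was −0.80 (SE 0.42, adjusted p = 0.999). Col6a3 had −0.80 (SE 0.56, adjusted p = 0.999), Col12a1 0.67 (SE 0.51, adjusted p = 0.999), Col1a2 0.60 (SE 0.39, adjusted p = 0.999) and Col5a2 0.22 (SE 0.44, adjusted p = 0.999). With no low-count filter Col11a1 and Col22a1 were called higher in KO among 0.345% of all genes. Since CO held 0 UMIs of either and KO2 nearly all, no fold is given.

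Endothelial-like nuclei were compared with tumor-like nuclei in all 6 libraries to ask which chains of the vessel basement membrane were counted there. Their collagens summed to 2548 to 5969 CPM, 137% of the tumor-like level on average (89.0 to 186%), and 58.2% of these UMIs were basement membrane collagens against 32.2% in tumor-like nuclei. Of 29 collagens tested, 6 were higher and 4 lower, where 8.80% of all 12333 genes were higher and 6.04% lower (14.8% in either direction). The median log2 fold change was 0.01 over the collagens and −0.16 over all genes. Of the higher members 4 were basement membrane chains (Col4a1, Col4a2, Col15a1, Col18a1) and the other 2 were the membrane-spanning Col13a1 and Col23a1. Col13a1 and Col15a1, at 0.163 and 0.408 CPM pooled over tumor-like nuclei, could pass the low-count filter mainly through the endothelial-like class. Their calls add no support to these counts.

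Col4a1 had 20, 78 and 258 UMIs across CO against 143, 110 and 206 UMIs across KO, at 959, 707 and 1878 CPM across CO against 1251, 833 and 514 CPM across KO. Each library lay above its tumor-like level, with a log2 fold change of 1.56 (SE 0.15, adjusted p = 3.6e-23). Col4a2 was at 1007, 462 and 1128 CPM across CO against 980.2, 462 and 511 CPM across KO, with 1.49 (SE 0.15, adjusted p = 6.9e-21), and the pair stood at 135 UMIs of Col4a1 per 100 of Col4a2, close to the 129 of tumor-like and the 133 of fibroblast-like nuclei. Col15a1 had 1, 9 and 45 UMIs across CO against 16, 8 and 30 UMIs across KO, or 47.9, 81.6 and 328 CPM across CO against 140.0, 60.6 and 74.8 CPM across KO, and was higher by 7.71 (SE 0.50, adjusted p = 4.4e-51), the highest log2 fold change among the collagens here. CO3 had the highest level of each of these genes. Col18a1 was at 288, 281 and 386 CPM across CO against 368, 121 and 184 CPM across KO, higher by 0.66 (SE 0.17, adjusted p = 0.0012). It lay above the tumor-like level of the same library in all 6, but was not called by DESeq2 (0.68, adjusted p = 0.051), without KO1 (0.41), with classes set by the marker counts of each nucleus (0.56) or with the stricter filter on nuclei (0.38). Col4a5 was at 144, 109 and 43.7 CPM across CO against 114, 98.5 and 107 CPM across KO and was lower at −0.73 (SE 0.21, adjusted p = 0.0041), with DESeq2 at −0.68 (adjusted p = 0.056) and without CO3 at −0.54, both uncalled. Col4a4 had 1 UMI, and Col4a3 and Col4a6 had 0 among 915949 UMIs, which allows up to 3.28 CPM.

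The membrane-spanning Col23a1 had 0, 3 and 11 UMIs across CO against 2, 7 and 2 UMIs across KO, or 0, 27.2 and 80.1 CPM across CO against 17.5, 53.0 and 4.99 CPM across KO, and was higher by 2.66 (SE 0.51, adjusted p = 3.8e-06). Col13a1 had 0, 0 and 0 UMIs across CO against 2, 3 and 1 UMIs across KO and was higher by 5.06 (SE 1.11, adjusted p = 8.7e-05), on 6 UMIs, none in CO. Of 10 fibrillar members tested, none was higher, 3 were lower and 7 did not pass. Col3a1 was at 239.7, 245 and 568 CPM across CO against 131, 424 and 277 CPM across KO and was lower than in tumor-like nuclei, at −0.80 (SE 0.17, adjusted p = 3.0e-05). Col5a1 was at 47.9, 99.7 and 138 CPM across CO against 70.0, 159 and 132 CPM across KO, lower at −0.60 (SE 0.19, adjusted p = 0.017), and Col5a2 at 0, 72.5 and 211 CPM across CO against 78.8, 189 and 122 CPM across KO, lower at −0.62 (SE 0.19, adjusted p = 0.012). The calls of Col5a1 and Col5a2 were lost with DESeq2, with RLE size factors, with the stricter filter and without CO1 or CO2, that of Col3a1 with the stricter filter, and that of Col23a1 with classes set by the marker counts (1.15). Col1a2 was at 47.9, 72.5 and 153 CPM across CO against 70.0, 174 and 105 CPM across KO, with −0.46. Col5a3 was at 0, 36.3 and 87.3 CPM across CO against 26.3, 22.7 and 67.3 CPM across KO, with −0.35. Col27a1 was at 95.9, 9.07 and 51.0 CPM across CO against 8.75, 60.6 and 34.9 CPM across KO, with −0.41. These 3 did not pass. Col1a1, the chain most enriched in fibroblast-like nuclei among those of type I, had 13 UMIs here, and 12.6 per 100 UMIs of Col1a2.

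Among the other collagens of endothelial-like nuclei, Col6a3 was at 95.9, 172 and 284 CPM across CO against 131, 530.2 and 212 CPM across KO. Col6a1 was at 47.9, 36.3 and 124 CPM across CO against 43.8, 83.3 and 62.3 CPM across KO and Col6a2 at 0, 63.5 and 102 CPM across CO against 61.3, 60.6 and 34.9 CPM across KO, and CO3 was above CO1 and CO2 for each of these type VI chains. Col8a1 was at 47.9, 0 and 87.3 CPM across CO against 26.3, 7.57 and 175 CPM across KO, with 70 of its 87 UMIs in KO3. Col12a1 was at 0, 0 and 124 CPM across CO against 17.5, 98.5 and 34.9 CPM across KO and Col16a1 at 47.9, 54.4 and 36.4 CPM across CO against 43.8, 60.6 and 54.8 CPM across KO. None of these 6 passed the test against tumor-like nuclei. The other 26 members had 13 UMIs or fewer. Col14a1, counted in fibroblast-like and macrophage-like nuclei, had 3 UMIs here.

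**Figure D3:**
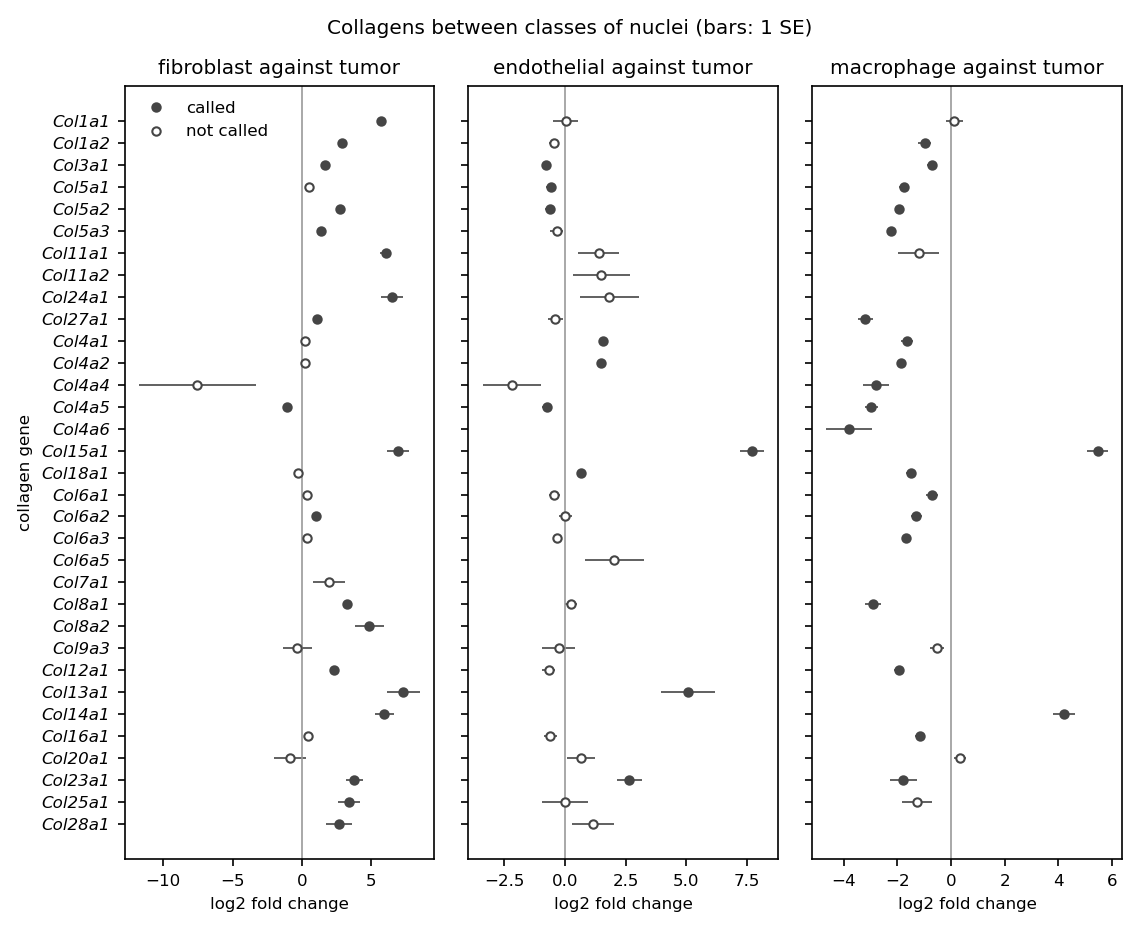
Log2 fold change of each tested collagen (rows) in fibroblast-like, endothelial-like and macrophage-like nuclei over tumor-like nuclei of the same libraries, with its standard error as a bar; filled points passed the threshold. Fibrillar members lie to the right in fibroblast-like nuclei (Col1a1 at 5.75), 4 of 6 basement membrane chains in endothelial-like nuclei (Col4a1 at 1.56), and most members to the left in macrophage-like nuclei.

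Between the groups, endothelial-like nuclei gave 0 called genes of 3304 tested with edgeR (0%) and 0 with DESeq2, with 135 at an unadjusted p under 0.05 and none of the 10 collagens tested among them. All 18 members with at least 20 UMIs overlapped between CO and KO, where 11.1% of all 7475 such genes did not. Over the collagens the median log2 fold change was −0.17, and over all genes 0.01. For Col15a1 it was −1.06 (SE 0.57, adjusted p = 0.90) and for Col18a1 −0.55 (SE 0.43, adjusted p = 0.90). Col4a1 had −0.46 (SE 0.46, adjusted p = 0.92), Col3a1 −0.45 (SE 0.44, adjusted p = 0.91) and Col6a3 0.44 (SE 0.50, adjusted p = 0.93). The last 3 changed sign when single libraries were left out. The basement membrane members summed to 2445, 1641 and 3771 CPM across CO against 2853, 1575 and 1391 CPM across KO, a difference of −679 CPM (exact permutation p 0.5, n = 3 each), with CO3 alone far above the rest.

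In macrophage-like nuclei the question was which collagens were counted, and how their levels stood beside those of tumor markers in the same nuclei. Collagens summed to 623 to 1500.5 CPM per library, and 47.9% of the UMIs were fibrillar, 25.1% basement membrane and 27.0% other. Of 26 collagens tested against tumor-like nuclei, 2 were higher and 19 lower, where 26.2% of all 12509 genes were higher and 26.3% lower (52.6% in either direction). The median log2 fold change was −1.56 over the collagens and 0.00 over all genes. The members called higher were Col14a1 and Col15a1, both of which had under 100 UMIs in the far larger tumor-like class. At 1.26 and 0.408 CPM pooled there, they could pass the low-count filter mainly through the macrophage-like class.

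Col14a1 had 3, 30 and 19 UMIs across CO against 96, 12 and 56 UMIs across KO in macrophage-like nuclei, or 2.80, 21.3 and 23.3 CPM across CO against 52.9, 24.7 and 28.9 CPM across KO. All KO libraries lay above all CO libraries, and the log2 fold change over tumor-like nuclei was 4.21 (SE 0.40, adjusted p = 1.1e-06). Col15a1 had 15, 26 and 12 UMIs across CO against 30, 16 and 30 UMIs across KO, or 14, 18.5 and 14.7 CPM across CO against 16.5, 32.9 and 15.5 CPM across KO, with KO2 highest and the others close together, and its log2 fold change was 5.47 (SE 0.39, adjusted p = 7.0e-08). Against T/NK-like nuclei, the other large immune class and a comparison added later, Col14a1 was higher by 2.44 (SE 0.59, adjusted p = 0.0022), the single call among 15 collagens, where 13.1% of all 8557 genes were higher and 12.1% lower (25.2% in either direction). Col15a1 had 1.30 (SE 0.53, adjusted p = 0.070) in that comparison and did not pass. The Col14a1 call was lost without KO1, without KO3, with the stricter filter and with classes set by the marker counts of each nucleus.

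The 19 members called lower ranged from −3.80 for Col4a6 to −0.71 for Col6a1. Fibrillar Col3a1 was at 177, 303 and 556 CPM across CO against 148, 465 and 248 CPM across KO, which was lower than in tumor-like nuclei, at −0.72 (SE 0.17, adjusted p = 0.0021). Col1a2 was at 44.7, 50.5 and 97.9 CPM across CO against 59.0, 105 and 106 CPM across KO, lower at −0.98 (SE 0.24, adjusted p = 0.0027). Col5a1 was at 37.3, 27.7 and 60.0 CPM across CO against 28.7, 67.9 and 71.2 CPM across KO and Col5a2 at 20.5, 42.0 and 62.4 CPM across CO against 23.2, 76.1 and 54.7 CPM across KO, lower at −1.77 (SE 0.17) and −1.93 (SE 0.14). All 4 were lower in CO1 and KO1 than in CO3, KO2 and KO3. Of the basement membrane chains, Col4a1 was at 57.8, 61.9 and 129.7 CPM across CO against 48.5, 148 and 144 CPM across KO and lower at −1.63 (SE 0.22). Col4a2 was at 40.1, 39.8 and 72.2 CPM across CO against 51.8, 74.0 and 89.2 CPM across KO, lower at −1.86 (SE 0.16). Col18a1 was at 47.5, 57.6 and 72.2 CPM across CO against 32.5, 53.5 and 64.5 CPM across KO, lower at −1.5 (SE 0.18). Col4a5 was lowest of these relative to tumor-like nuclei, at 9.32, 9.96 and 12.2 CPM across CO against 8.82, 30.9 and 38.7 CPM across KO and a log2 fold change of −2.98 (SE 0.23). Adjusted p for these 8 genes lay at 0.0027 or below.

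Among the other collagens Col6a3 was at 56.9, 51.2 and 126 CPM across CO against 49.6, 121 and 121 CPM across KO, lower at −1.68 (SE 0.15). Col6a1 was at 33.6, 45.5 and 77.1 CPM across CO against 36.9, 72.0 and 71.7 CPM across KO, lower at −0.71 (SE 0.24, adjusted p = 0.017), a call lost without CO1, CO2 or KO1. Col6a2 was at 14, 13.5 and 29.4 CPM across CO against 15.4, 26.7 and 28.4 CPM across KO, lower at −1.30 (SE 0.21). Col16a1 was at 15.8, 24.2 and 45.3 CPM across CO against 24.8, 49.4 and 41.3 CPM across KO and Col12a1 at 7.46, 10.7 and 39.2 CPM across CO against 6.61, 32.9 and 18 CPM across KO, lower at −1.16 (SE 0.20) and −1.95 (SE 0.18). The remaining lower members were Col27a1 (−3.19), Col8a1 (−2.90), Col4a4 (−2.81), Col5a3 (−2.25) and Col23a1 (−1.79). Col1a1 (0.12), Col20a1 (0.33), Col9a3, Col11a1 and Col25a1 did not pass. Col9a2, Col22a1 and Col26a1 had 0 UMIs among 7535750, which allows up to 0.398 CPM.

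The level of each collagen in macrophage-like nuclei was then set beside the level of the 17 tumor markers, which had served to name the tumor-like class, both as a share of the tumor-like level. The tumor markers stood at 8.27, 5.33 and 7.34% across CO against 5.30, 13.5 and 15.8% across KO, and all collagens together at 26.4, 28.7 and 37.0% across CO against 33.1, 60.4 and 51.9% across KO. In every library the collagen share was the higher of the 2. Single tumor markers spread widely, however. Mecom, Hmga2 and Slit2 held 31.8%, 30.1% and 28.9% of the marker UMIs in tumor-like nuclei and so set the sum. Of the 12 markers with at least 100 UMIs in both classes, 8 had mean shares of 7.2 to 12%. The other 4, which held 0.16 to 0.47% each of the marker UMIs in tumor-like nuclei, lay above the mean share of the summed collagens, with Igf2bp3 at 114%, Crabp1 at 104%, Msln at 65.7% and Pthlh at 54.3%. The median over the 12 markers was 10.6% and over the 13 collagens below 33.8%. Of the 13 members with at least 100 UMIs in both classes, Col6a1 had the highest mean share, 67.8% (range 33.5 to 134%), followed by Col3a1, 61.2% (range 41.2 to 98.3%), and Col1a2, 55.6% (range 26.2 to 109%). Intermediate shares were those of Col16a1, 47.2% (range 22.4 to 92.0%), Col6a2, 41.6% (range 19.4 to 69.5%), Col18a1, 36.6% (range 21.5 to 53.8%), and Col4a1, 33.8% (range 19.1 to 60.0%). Below these came Col6a3, 30.6% (range 19.8 to 40.4%), Col5a1, 29.2% (range 17.1 to 43.6%), Col4a2, 27.2% (range 17.3 to 38.4%), Col12a1, 26.6% (range 12.2 to 49.7%), and Col5a2, 25.1% (range 15.5 to 33.4%). Neighbours in this order overlapped over the libraries. Col4a5 was lowest, 12.1% (range 6.62 to 24.0%), and its range overlapped that of the tumor markers. In T/NK-like nuclei, a class not known to make collagen, all collagens summed to 42.9% (range 28.3 to 65.4%) of the tumor-like level. The tumor markers summed to 21.6% (range 12.4 to 30.4%), and in CO1 they lay above the collagens, at 30.4% against 28.3%. The mean collagen share was thus close in both immune classes, and the difference was not tested. Fibroblast-like nuclei, which were few but rich in collagen, had summed fibrillar levels of 4823 to 7269 CPM, and the part of their RNA in the macrophage-like levels was not tested.

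**Figure D4:**
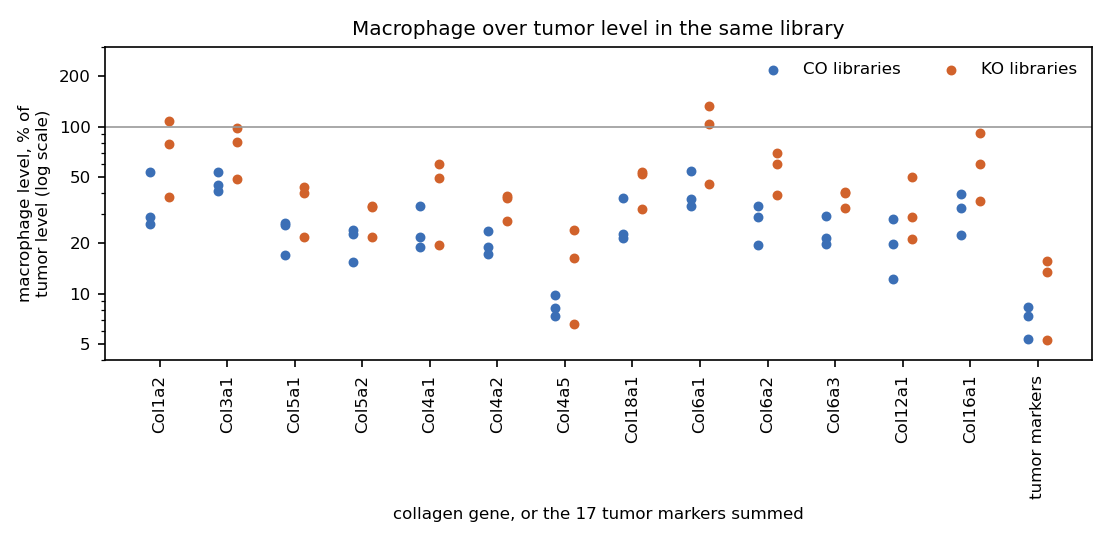
Level in macrophage-like nuclei as a percent of the level in tumor-like nuclei of the same library, for 13 collagens and the summed tumor markers, 1 point per library on a log axis. The tumor markers lie between 5.3 and 15.8%, Col4a5 between 6.6 and 24.0% and Col3a1 between 41.2 and 98.3%.

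Between KO and CO, no gene of 10000 tested in macrophage-like nuclei was called with edgeR (0%), 565 had an unadjusted p under 0.05, 1 of 18 collagens among them, and DESeq2 called 5 genes (0.05%), none a collagen. The median log2 fold change was 0.33 over the collagens and 0.00 over all genes. Col4a5 had the largest value, 1.31 (SE 0.55, adjusted p = 0.78), followed by Col14a1 with 1.22 (SE 0.57, adjusted p = 0.78). Col4a2, Col1a2 and Col4a1 had 0.53 (SE 0.32), 0.50 (SE 0.36) and 0.45 (SE 0.47), with adjusted p of 0.78, 0.79 and 0.81. Of the 15 members with at least 100 UMIs only Col14a1 did not overlap between the groups, KO above CO, where 12% of all 8864 such genes did not (6.14% with KO above). Without KO1, Col1a2 (0.79), Col4a1 (0.88), Col4a2 (0.80), Col4a5 (1.83) and Col5a1 (0.84) were called higher in KO, beside 20% of all genes then tested. KO1 held the lowest level of Col3a1, Col4a1, Col4a5, Col6a3 and Col12a1 in this class. The macrophage-like over tumor-like ratio of the summed tumor markers was higher in KO by 0.60 on the log2 scale (exact permutation p 0.4, n = 3 each). KO1 went the other way, below every CO library. For the fibrillar, basement membrane and other collagens the same ratio was higher in KO by 0.54, 0.65 and 0.81 (exact permutation p 0.2, 0.2 and 0.1, where 0.1 is the smallest possible). These differences hold both classes: for fibrillar collagens the tumor-like level differed by −0.54 and the macrophage-like level by −0.00049, for basement membrane collagens by −0.31 and 0.34, and for the others by −0.38 and 0.43. The part of tumor RNA in these differences was not tested.

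In T/NK-like nuclei, with 684 nuclei in all, edgeR called 0 of 4504 genes between KO and CO (0%), 225 had an unadjusted p under 0.05, 1 of 7 collagens among them, and DESeq2 called 1 gene (0.0222%), not a collagen. Col3a1 was at 127, 176 and 451 CPM across CO against 118, 337 and 339 CPM across KO, for a log2 fold change of 0.09 (SE 0.47, adjusted p = 0.99). Col6a3 was at 68.8, 102 and 146 CPM across CO against 42.3, 140.4 and 143 CPM across KO, with 0.03 (SE 0.46, adjusted p = 0.997). These were the only members with at least 100 UMIs in this class, and CO3 had the highest summed level of all collagens here, as it had in tumor-like, fibroblast-like, endothelial-like and macrophage-like nuclei.

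Within the tumor-like class, collagen levels also differed between clusters, and 1 cluster of 2062 nuclei is described, led by Pde10a, Gpm6b, Frmd5, Gm2115 and Sned1. Pde10a, Gpm6b and Frmd5, all on the list of tumor markers, were higher in fibroblast-like nuclei (736, 199 and 363 CPM pooled) than in tumor-like nuclei (314, 54.3 and 159 CPM). The study gives these genes as markers of a cluster it names fibroblasts. The identity of the cluster was not tested further. The cluster was formed without collagens but was picked out after its values were seen, so the comparison with the other tumor-like nuclei is a description with no test. Of 25 members with at least 100 UMIs, 15 were higher in the cluster in all 6 libraries, 1 was lower in all 6 and 9 were mixed. How many of all genes were higher in all 6 was not counted, so these counts have no background beside them. The median over members of the mean fold was 1.67. Over 10120 genes with at least 100 UMIs both in the cluster and in the rest, the median ratio of mean levels was 0.98. The 2 measures differ, since a mean of ratios can lie above a ratio of means. Col1a1, for which a mean fold is given below, had mean levels of 24.4 and 8.41 CPM. In the order of libraries CO1 to KO3, Col3a1 was at 1102, 1488, 1616, 721, 881 and 539 CPM in the cluster and 284, 399, 681, 209, 309 and 212 CPM in the other tumor-like nuclei. It was higher in the cluster by 3.14-fold (range 2.37 to 3.88), and every library had the cluster above the rest. Col5a2 was higher by 3.29-fold (range 2.58 to 4.14), Col12a1 by 4.62-fold (range 2.60 to 7.83), Col1a1 by 4.77-fold (range 1.05 to 9.29) and Col27a1 by 2.46-fold (range 2.17 to 2.73). The type I partner chain Col1a2 differed less, by 1.42-fold (range 0.962 to 1.94). The type IV chains Col4a1 and Col4a2 were higher by 1.89-fold (range 1.55 to 2.36) and 1.81-fold (range 1.56 to 2.16), and Col6a3 by 1.70-fold (range 1.46 to 1.88). Col18a1 was level at 0.961-fold (range 0.688 to 1.19), and Col4a5 was lower in every library at 0.932-fold (range 0.884 to 0.983). Summed, fibrillar members were higher by 2.41-fold (range 1.84 to 2.94), basement membrane members by 1.46-fold (range 1.30 to 1.65) and the others by 1.66-fold (range 1.52 to 1.80). The cluster held 21.0, 24.6 and 38.7% across CO against 18, 29.2 and 16.9% across KO of the tumor-like nuclei. CO3, the library with the highest summed collagen level, had the largest share, and its part in the differences between libraries was not tested. The 16 host fibroblast markers summed to 1112 to 2130 CPM per library in the cluster, against 673 to 1245 CPM in the other tumor-like and 2103 to 5392 CPM in fibroblast-like nuclei. Pooled, 3 of the 16 were higher in the cluster than in fibroblast-like nuclei, among them Pdgfra at 1115 against 672 CPM. Without Pdgfra the markers summed to 394 CPM in the cluster, 301 CPM in the other tumor-like and 2753 CPM in fibroblast-like nuclei.

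**Figure D5:**
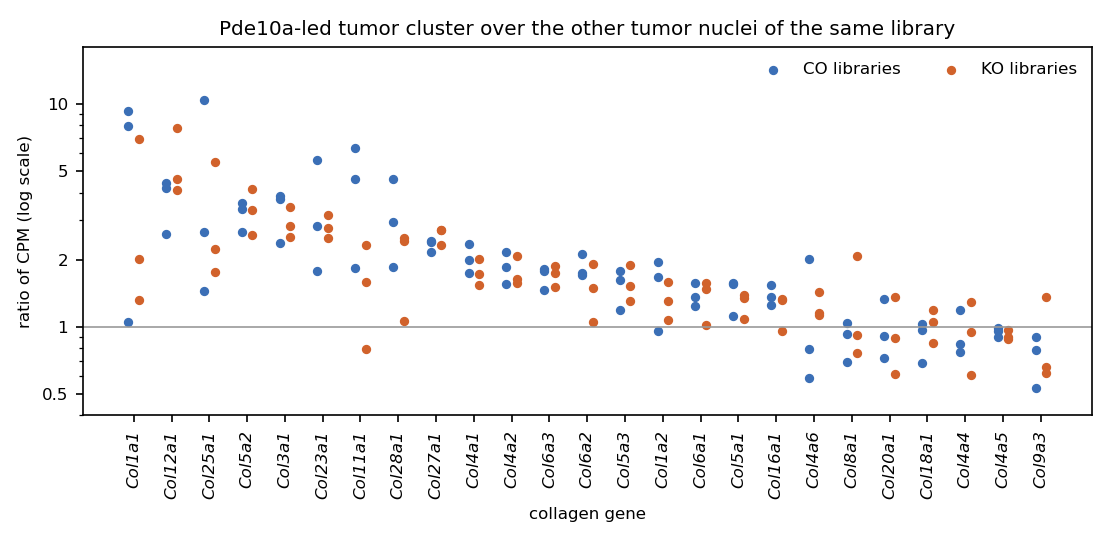
Fold of the level in the Pde10a-led cluster over that in the other tumor-like nuclei of the same library, on a log axis, for the 25 members with at least 100 UMIs, 1 point per library. Fibrillar Col3a1 and Col5a2 lie above 2-fold in all 6 libraries, and Col4a5 lies below 1 in all 6.

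The enzymes, partners and receptors of collagens were then described from 5 lists, naming the members with the most UMIs in tumor-like nuclei and, after their values were seen, members that passed the test. Between KO and CO no member of any list was called in any class. In tumor-like nuclei an unadjusted p under 0.05 was found for 2 of 9 receptors, 2 of 14 members of the laminin, nidogen and perlecan list and 1 of 10 of the degradation list, beside 873 of all 12831 genes. In macrophage-like nuclei it was found for 3 of 5 receptors, 3 of 7 of the laminin, nidogen and perlecan list, 1 of 6 of the degradation list and 1 of 15 of the enzymes that modify and fold the chains, beside 565 of all 10000 genes. Percentages of all genes given beside list counts are those called in the same direction. Among enzymes that modify and fold the chains, those with the most UMIs in tumor-like nuclei were Ppib, a prolyl isomerase, 57.2 to 519 CPM, P4ha1, which hydroxylates proline, 224 to 354 CPM, the collagen chaperone Serpinh1, 70.0 to 263 CPM, and the lysyl hydroxylase Plod2, 115 to 164 CPM. All 4 were counted in every library. In fibroblast-like nuclei 1 of 18 tested was higher, P4ha3, at 5.02 (SE 0.84, adjusted p = 1.2e-07), a share close to the 5.72% of all genes. In endothelial-like nuclei 3 were higher and 2 lower of 19 (8.80% and 6.04% of all genes), and in macrophage-like nuclei 1 higher and 5 lower of 17 (26.2% and 26.3%).

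Of the enzymes that trim propeptides and crosslink fibrils, 7 of 12 were higher in fibroblast-like than in tumor-like nuclei, beside 5.72% of all genes. In tumor-like nuclei the most counted were Pcolce, an enhancer of propeptide cleavage, 81.9 to 429 CPM, the oxidase Loxl1, 90.3 to 200.3 CPM, the protease Bmp1, 54.1 to 103 CPM, and Loxl3, 45.4 to 69.7 CPM. The 7 were Tll1 (5.15), a procollagen protease, Lox (3.03), the founding lysyl oxidase, Adamts3 (2.75), Loxl2 (2.66), Adamts2 (2.59), Loxl3 (1.59) and Bmp1 (1.33) on the log2 scale. This is the class in which fibrillar collagens were higher too. In endothelial-like nuclei 2 were higher (Tll1 and Loxl2) and 3 lower of 12 (8.80% and 6.04% of all genes), and in macrophage-like nuclei 1 higher and 7 lower of 12 (26.2% and 26.3%). Of the degradation list, Timp1, 157 to 842 CPM, Timp2, 84.4 to 276 CPM, Mmp14, 77.3 to 95.3 CPM, and Fap, 12.3 to 34.5 CPM, were counted most in tumor-like nuclei. In fibroblast-like nuclei 5 of 9 were higher (5.72% of all genes), namely the collagenase Mmp13 (5.32), Mmp2 (3.84), Mmp16 (3.58), the inhibitor Timp3 (3.48) and Fap (3.26), the last also on the list of fibroblast markers. Mmp13 was also higher in macrophage-like nuclei, by 5.21 (SE 0.36, adjusted p = 6.4e-08), with Mmp14 and Fap, while Mmp16 was lower (3 higher and 1 lower of 10, beside 26.2% and 26.3% of all genes). In endothelial-like nuclei Timp3 (5.76) and Mmp15 (3.72) were higher and Timp2 lower, of 10 tested (8.80% and 6.04% of all genes).

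The laminin, nidogen and perlecan list, whose members form the basement membrane with type IV collagen, was higher in endothelial-like nuclei for 8 of 11 tested, beside 8.80% of all genes. The most counted in tumor-like nuclei were Lamc1, 181 to 243 CPM, Hspg2, 146 to 226 CPM, Lamb1, 144 to 181 CPM, and Lama4, 39.0 to 141 CPM. Lama4, the laminin chain of vessel walls, was at 671, 254 and 589.6 CPM across CO against 499, 469.6 and 262 CPM across KO in endothelial-like nuclei, with 2.62 (SE 0.16, adjusted p = 1.9e-55). Nid1, which links laminin to type IV collagen, was at 239.7, 99.7 and 189 CPM across CO against 70.0, 136 and 67.3 CPM across KO, with 2.33 (SE 0.25, adjusted p = 2.9e-19). Hspg2, which encodes perlecan, was higher by 0.89 (SE 0.16, adjusted p = 5.7e-07), and the others were Lama3, Nid2, Lama2, Lama5 and Lamc1. In fibroblast-like nuclei 3 of 11 were higher (Lama2, Lama4, Nid1), beside 5.72% of all genes, with Lama2, the laminin chain of muscle and interstitial cells, at 6.79. In macrophage-like nuclei 1 was higher (Lamb3) and 8 lower of 10, beside 26.2% and 26.3% of all genes.

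Among collagen receptors, endothelial-like nuclei were higher for 3 of 10, the integrin chains Itga1 and Itga2 and the adhesion receptor Adgrg1, and lower for Ddr2, a receptor tyrosine kinase for fibrillar collagen, beside 8.80% and 6.04% of all genes. Itga1 had 4.01 (SE 0.27, adjusted p = 1.4e-46), Itga2 6.32 (SE 0.52, adjusted p = 7.7e-32) and Adgrg1 2.84 (SE 0.68, adjusted p = 0.00044). Ddr2 had −0.70 (SE 0.17, adjusted p = 0.00060). In tumor-like nuclei the most counted receptors were the integrin chain Itgb1, 429 to 686 CPM, Ddr2, 319.8 to 469 CPM, Mrc2, 119.5 to 164 CPM, and Ddr1, 33.5 to 52.8 CPM. Fibroblast-like nuclei were higher for 2 of 8, Itga11 (3.23) and Itga1 (3.05), beside 5.72% of all genes. In macrophage-like nuclei Lair1, an inhibitory collagen receptor of immune cells, was at 469, 444 and 482 CPM across CO against 475, 611 and 498 CPM across KO and was higher than in tumor-like nuclei by 6.93 (SE 0.35, adjusted p = 2.6e-09). It was the single receptor called higher there, and 5 of 8 were lower (26.3% of all genes), among them Ddr2 (−2.57), the endocytic receptor Mrc2 (−2.16) and Ddr1 (−2.02).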

How the data were processed

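Nuclei were sequenced as droplet-based single-nucleus RNA-seq in 6 libraries, 3 CO and 3 KO. The authors deposited raw UMI counts per gene and barcode, made with Cell Ranger (version 3.1.0 in the file header, 3.0.2 in the submitters' processing notes, which also list Seurat 5.2.1) on GRCm38. All deposited values are integers, and the removal of free RNA that the study's methods name cannot be seen in them. Of 18865 barcodes, 18014 lay within the limits on genes (100 to 7500) and on mitochondrial counts (under 20%). Scrublet-style scores gave an automatic call of only 11 doublets, so the highest-scoring nuclei were removed at 0.8% per 1000 barcodes of a library (500 in all).

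Clusters were made without the 44 collagen genes (scanpy 1.11.5, leidenalg 0.10.2, 2000 variable genes, 30 principal components, Harmony over libraries) and named from at least 3 detected markers. Counts were summed per library and class, and levels are UMIs per 1000000 (CPM). edgeR 4.0.16 (quasi-likelihood test, TMM, low-count filter) was fitted on all genes with Benjamini-Hochberg adjustment, with DESeq2 1.42.0 as an alternative. Contrasts between classes had library as a block. The low-count filter took both classes of a contrast together, so genes nearly absent from one class were tested only where the other class held enough counts. The depth of a class sets what can be seen: a count of 0 allows up to 3 UMIs of its total. The fits were also run on simulated counts with known changes, whose outcome is not given here. These covered KO against CO in tumor-like and macrophage-like nuclei, and macrophage-like and endothelial-like against tumor-like nuclei. Each had the same spread for all genes, so counts that lie mostly in single libraries and the fibroblast-like contrast were not covered. Members with at least 100 UMIs in a class (20 in the fibroblast-like and endothelial-like classes) are given per library, with every member that passed a test, or, where none did, the 5 with the largest absolute log2 fold change among those with at least 100 UMIs. Members and lists were chosen with earlier results of these data known. Gene positions are from GENCODE and promoters from RefSeq (GRCm38.p6). Alternatives were other size factors, no low-count filter, a stricter filter on nuclei (500 genes, 5% mitochondrial), doublets kept, classes from the marker counts of each nucleus, and each library left out. T/NK-like nuclei over tumor-like nuclei, the fibroblast-like KO and CO sums, the log2 macrophage over tumor difference, the shares of single tumor markers and the tumor cluster were added after seeing the data.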

Additional observations from a re-analysis of the deposited data

How the results depend on the processing

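Counts of collagens called between KO and CO were 0 in every class under most alternatives. DESeq2 gave 1 in all nuclei and 1 in tumor-like nuclei, leaving out single libraries gave 0 to 2 in tumor-like and 0 to 5 in macrophage-like nuclei, and no low-count filter gave 2 in fibroblast-like nuclei. With the replicate number as a block edgeR called 0 collagens in each class. In tumor-like nuclei 1735 of 13117 genes then had an unadjusted p under 0.05, against 873 of 12831 without it. Same-numbered libraries deviated together for numbers 1 and 3 but not 2 (correlations 0.56, −0.29 and 0.31 in tumor-like nuclei). The differently numbered CO3 and KO2 (0.52) and CO2 and KO1 (0.34) did so too, both above the value for number 3. The remaining pairs of different number had −0.58 to −0.22. Median mitochondrial counts were close within each number (6.76 and 6.21%, 3.97 and 3.82%, 1.33 and 0.889% in CO and KO). The main fits left the numbers out, and whether they mark pairs was not tested. Between classes, 10 calls in endothelial-like nuclei became 6 with DESeq2 and 5 with the stricter filter. Against T/NK-like nuclei, 1 call in macrophage-like nuclei became 2 with RLE size factors, 4 with no filter, 0 with the stricter filter, 0 with marker counts of each nucleus, 17 with doublets kept, and 0 to 2 with libraries left out. The cause was not tested. Of the other named calls, macrophage-like over tumor-like kept 18 to 21 of 21 and fibroblast-like over tumor-like 13 to 19 of 19. For the summed KO minus CO differences in CPM, sign changes were as follows. Endothelial-like: fibrillar 34.4 with doublets kept and −186.3 to 245.8 with libraries left out, basement membrane 20.4 with marker counts, other −6.57 to 338.7. Macrophage-like: fibrillar 0.0228 with TMM and −124.2 to 149.3 with libraries left out. T/NK-like: fibrillar −16.9 with the stricter filter, −218.4 with doublets kept and −93.7 to 237.7 with libraries left out; basement membrane −1.25 with marker counts, −131.1 with doublets kept and −37.6 to 111.8; other −106.6 with doublets kept and −6.63 to 120.2. Dendritic-like: fibrillar −573.0 to 16.9, basement membrane −197.3 to 13.9, other −140.6 to 32.9, and adipocyte-like basement membrane −94.8 to 177.7, all with libraries left out. Log2 fold changes of KO over CO that changed sign with libraries left out were Col11a1 over all nuclei (−0.30 to 2.02), Col12a1 in tumor-like nuclei (−1.18 to 0.17), Col4a1 and Col6a3 in endothelial-like nuclei (−0.89 to 0.17 and −0.20 to 0.97) and Col5a2 in fibroblast-like nuclei (−0.016 to 0.80). Endothelial-like Col3a1 was 0.14 with marker counts and −0.79 to 0.24 with libraries left out. T/NK-like Col3a1 was −0.046 with marker counts, −0.44 with doublets kept and −0.25 to 0.79 with libraries left out, and Col6a3 was −0.024 with the replicate block, −0.42 with doublets kept and −0.43 to 0.48. All 13 macrophage over tumor shares stayed within 1 SD with doublets kept, with marker counts, with the stricter filter and with each of the 6 libraries left out. The endothelial-like KO and CO comparison with the stricter filter was not run (5 and 6 nuclei in 2 libraries), nor were some in dendritic-like and adipocyte-like nuclei, with under 10 nuclei. Depth limits the fibroblast-like and endothelial-like classes most, with 543345 and 915949 UMIs in all.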
